A study of Mus musculus with 15 samples.

Results

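The colony-stimulating factors are secreted proteins that govern the growth, survival and activation of myeloid cells, and 9 genes encode the factors and the receptor chains described here. The 4 ligand genes are Csf1, Csf2, Csf3 and Il34, and the 5 receptor genes are Csf1r, Csf2ra, Csf2rb, Csf2rb2 and Csf3r. They were chosen by symbol, through the GENCODE annotation of the mouse, from the 48795 genes in each deposited count file, and all 9 were found. Messenger RNA of ear tissue was sequenced from female mice aged 5 weeks in a model of ear inflammation caused by phorbol 12-myristate 13-acetate (PMA), a phorbol ester that activates protein kinase C and irritates skin. The 15 libraries fall into 3 groups by their labels: PMA_1002 (n = 6), labelled for PMA and for the innate defense regulator peptide that the series title names, PMA_ethanol (n = 4) and Control (n = 5, treatment labelled control). The study asks how that peptide acts against sterile inflammation. No dose, time or strain is stated in the labels used here, nor what Control ears received. Since ethanol is named for PMA_ethanol alone, a difference in vehicle and the peptide cannot be told apart, and since no label ties a library to its own animal, the p-values below reflect the spread among libraries, which may be technical.

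Csf1, also called M-CSF, and Il34 both bind the receptor Csf1r, which keeps monocytes and macrophages alive, and Il34 made by keratinocytes maintains the Langerhans cells of the epidermis. Csf2, or GM-CSF, binds the alpha chain Csf2ra together with the beta chain Csf2rb, which it shares with interleukin-3 and interleukin-5, while Csf2rb2 is a second beta chain of the mouse that serves interleukin-3. Csf3, or G-CSF, drives the production and release of neutrophils through its receptor Csf3r. In bulk tissue, fewer cells of a type and less RNA per cell cannot be told apart.

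On the GRCm38 build, Csf1 (ENSMUSG00000014599) spans chr3:107741048-107760469 on the minus strand. Chromosome 11 holds Csf2 (ENSMUSG00000018916) at chr11:54247271-54249667 on the minus strand and Csf3 (ENSMUSG00000038067) at chr11:98701263-98703629 on the plus strand, 44451595 bases apart. Il34 (ENSMUSG00000031750) lies at chr8:110741829-110805924, minus strand. Csf2ra (ENSMUSG00000059326) is at chr19:61223957-61228429 on the minus strand. Csf2rb2 (ENSMUSG00000071714) at chr15:78282507-78305721, minus strand, and Csf2rb (ENSMUSG00000071713) at chr15:78325752-78353847, plus strand, are neighbours 20030 bases apart. Csf3r (ENSMUSG00000028859) occupies chr4:126024550-126044440 on the plus strand, and the position of Csf1r is given with its values. All 9 are annotated as protein coding, and the counts are of reads over exons of the whole gene, which does not separate isoforms.

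The RefSeq promoter windows of 4 members whose levels differed between the groups are shown, each from 250 bases before to 50 bases after the RefSeq start. They were chosen because all 4 sit beside the values that follow and each holds a match to the motif of PU.1 or NF-kB. Having been picked for such matches, these windows do not show that the matches mark members that differed. Csf2, whose level also differed, has a window with neither match, described below. Capitals mark matches to PU.1 (GAGGAA) or NF-kB on either strand, and positions count from the start, with the base before it as -1. Csf1 at chr3:107760420-107760719 (GRCm38.p6, minus strand) had an NF-kB match at -154 to -145. Csf3r at chr4:126024409-126024708 (plus strand) had an NF-kB match at -129 to -120 and a PU.1 match at -86 to -81, and its RefSeq start lies downstream of the GENCODE start. Csf2ra at chr19:61228369-61228668 (minus strand) had adjoining PU.1 matches at -14 to -9 and at -8 to -3. Csf2rb2 at chr15:78305672-78305971 (minus strand) had PU.1 matches at -167 to -162 and at 30 to 35.
Csf1: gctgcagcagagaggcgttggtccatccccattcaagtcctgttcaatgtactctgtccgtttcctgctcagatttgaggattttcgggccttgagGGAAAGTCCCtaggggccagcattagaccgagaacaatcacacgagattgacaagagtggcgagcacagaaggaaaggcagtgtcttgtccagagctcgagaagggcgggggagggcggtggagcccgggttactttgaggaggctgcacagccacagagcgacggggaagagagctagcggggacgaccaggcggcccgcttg
Csf3r: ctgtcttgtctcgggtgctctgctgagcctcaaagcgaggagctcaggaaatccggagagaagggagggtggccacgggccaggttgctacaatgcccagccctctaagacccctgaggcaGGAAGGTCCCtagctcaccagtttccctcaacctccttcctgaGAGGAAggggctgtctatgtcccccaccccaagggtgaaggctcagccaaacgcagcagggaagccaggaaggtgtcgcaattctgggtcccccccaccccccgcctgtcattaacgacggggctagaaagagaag
Csf2ra: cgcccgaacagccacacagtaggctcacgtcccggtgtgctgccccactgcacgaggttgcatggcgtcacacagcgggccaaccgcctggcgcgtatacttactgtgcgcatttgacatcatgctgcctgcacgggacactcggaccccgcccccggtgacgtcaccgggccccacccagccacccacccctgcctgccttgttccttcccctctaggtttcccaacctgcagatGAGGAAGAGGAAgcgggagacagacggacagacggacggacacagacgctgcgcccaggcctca
Csf2rb2: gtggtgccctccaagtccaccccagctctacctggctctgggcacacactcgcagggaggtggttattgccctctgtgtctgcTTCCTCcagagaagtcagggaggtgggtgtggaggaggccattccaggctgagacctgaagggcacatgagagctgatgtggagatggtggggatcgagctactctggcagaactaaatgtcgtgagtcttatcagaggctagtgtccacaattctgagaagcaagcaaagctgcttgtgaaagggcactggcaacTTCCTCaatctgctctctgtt

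Promoter entries matched 5 of the 9 members, the fifth being Csf2, whose window held one C/EBP match (TTGCNNAA) at -145 to -138 and starts from a RefSeq position 232 bases upstream of the GENCODE start. Csf3, Il34, Csf1r and Csf2rb had no entry and are named only. Of the 32851 promoters in the RefSeq table, 28.3% held a PU.1 match, 8.46% an NF-kB match, 10.8% a C/EBP match and 7.81% an AP-1 match (TGANTCA), so these letters are common in windows of this length. No AP-1 match was found in the 5 windows. A match describes the sequence and is not a measured binding site, and the motifs were searched on both strands, with no overlap between matches of different motifs in these windows.

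The libraries held 2656680 to 28585995 reads in genes, and the shallowest was PMA_ethanol library 3. Levels are counts-per-million values (CPM) relative to library sizes scaled by the trimmed mean of M-values (TMM), and a gene was called where the Benjamini-Hochberg adjusted p of edgeR's quasi-likelihood test over 14991 tested genes was under 0.05. The tissue label was met by its markers: summed keratinocyte markers stood at 22112 to 25437 CPM in PMA_1002, 10894 to 14591 CPM in PMA_ethanol and 19714 to 26035 CPM in Control. Large parts of all tested genes were called, so counts of members and of listed genes have to be read against those shares, given below. The split of the calls moved with the scaling: genes higher in PMA_ethanol than in Control were 47.5% of those called, and 33.6% with upper-quartile scaling. For PMA_1002 against PMA_ethanol the share higher was 48.7% of the calls, and 61.8% with upper-quartile scaling, and for PMA_1002 against Control it was 51.5% and 34.6%.

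Most of these messages were higher with PMA, and those lay between Control and PMA_ethanol in PMA_1002, apart from Il34 and Csf1r. Of the 9 members 8 passed the filter on low counts and Csf2 did not. Csf3 passed it only through its reads in PMA_ethanol and so had to differ, so it is left out of the counts that follow. Of the other 7, 5 were called higher in PMA_ethanol than in Control (Csf1, Csf2ra, Csf2rb, Csf2rb2 and Csf3r) and 0 lower, where 32.5% of all tested genes were called higher and 35.9% lower. In PMA_1002 against PMA_ethanol, 5 were called lower (Csf1, Csf2ra, Csf2rb, Csf2rb2 and Csf3r) and 1 higher (Il34), where 18% of all tested genes were lower and 17% higher. In PMA_1002 against Control, 6 were called higher (Csf1, Il34, Csf2ra, Csf2rb, Csf2rb2 and Csf3r) and 0 lower, where 28.4% of all tested genes were higher and 26.7% lower. The comparisons share libraries, so their calls are set side by side and not counted as separate evidence. In both comparisons with Control, edgeR also had 0 members lower at an unadjusted p under 0.05, as did DESeq2 at its adjusted p. Csf1r was called in none of the comparisons, and Csf3r would not have passed the filter by its Control libraries alone. With upper-quartile scaling, or with no scaling factors, Il34 was also called lower in PMA_ethanol than in Control.

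**Figure D1:**
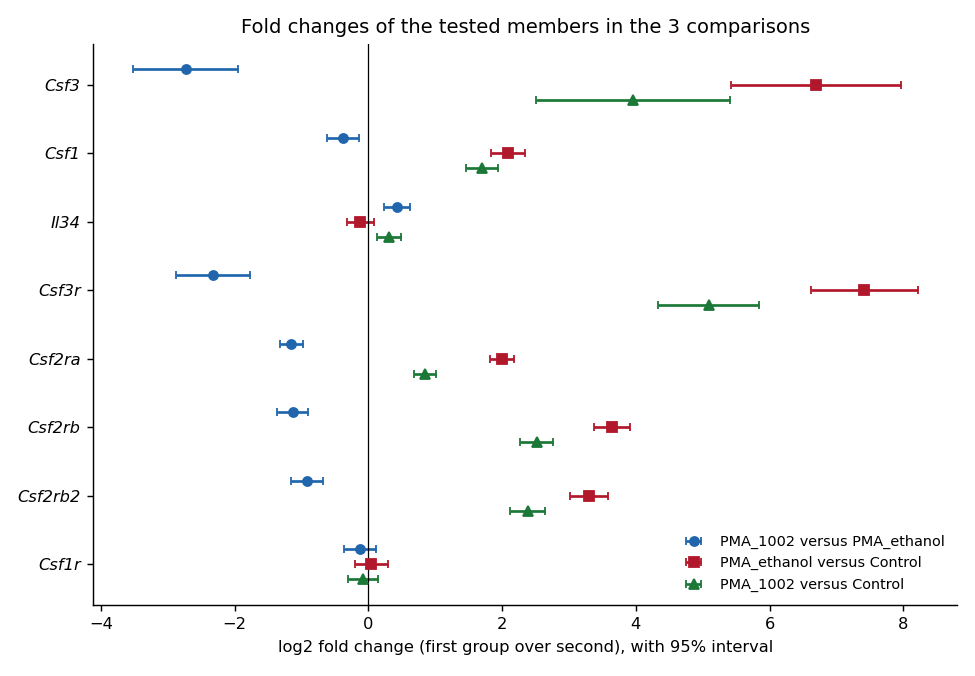
Log2 fold changes of the 8 tested members (x axis, first group over second, with 95% intervals) in each of the 3 comparisons, 1 row per gene. Csf3r and Csf3 lie farthest to the right for PMA_ethanol versus Control, at 7.42 and 6.69, and the intervals of Csf1r cross 0 in all 3 comparisons.

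Csf3, the neutrophil factor, was almost absent from Control ears and was the ligand with the largest fold change in PMA_ethanol over Control. It had 0.411 CPM at the lowest, 1.32 at the median and 3.38 at the highest of the 6 PMA_1002 libraries, then 11.05, 5.38, 12.0 and 11.1 CPM in the 4 PMA_ethanol libraries, and 0.173, 0, 0.160, 0 and 0 CPM in the 5 Control libraries. The 3 groups did not overlap, and PMA_ethanol library 2 held less than the other PMA_ethanol libraries. These levels rest on 86 reads in PMA_1002, 331 in PMA_ethanol and 3 in Control. Since the filter had fixed that Csf3 differed, its filtered fold changes of 6.69, -2.73 and 3.96 on the log2 scale (PMA_ethanol over Control, PMA_1002 over PMA_ethanol and PMA_1002 over Control) are descriptions. Without Control library 3, which holds 2 of the 3 Control reads, the first was 7.46 and the last 4.73. In a fit without the filter, over 28737 genes and added after seeing the data, edgeR gave 6.72 (SE 0.564, adjusted p = 7.78e-10), -2.72 (SE 0.352, adjusted p = 4.59e-06) and 3.99 (SE 0.645, adjusted p = 3.53e-05) in that order. From pooled reads the ratio of PMA_ethanol to Control was 97.7, with an exact 95% binomial interval of 33.1 to 476 that covers counting error only. The pooled ratio of PMA_1002 to PMA_ethanol was 0.168 (95% interval 0.131 to 0.214), and that of PMA_1002 to Control was 16.5 (95% interval 5.45 to 81.4).

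Csf2, the granulocyte and macrophage factor, was the rarest ligand in both PMA groups, but not in Control, and followed the same order of groups as Csf3. Its level was 0.597 CPM at the lowest, 0.708 at the median and 0.915 at the highest in PMA_1002, against 1.97, 2.14, 1.66 and 1.14 CPM in PMA_ethanol and 0.173, 0, 0.0800, 0 and 0.327 CPM in Control. No library of one group reached the range of another. Only 47 reads in PMA_1002, 79 in PMA_ethanol and 4 in Control lie behind these values, and Csf2 was below the filter of the gene test. A two-sided exact permutation test on CPM, chosen after seeing the data, gave p = 0.00794 for PMA_ethanol against Control, p = 0.00476 for PMA_1002 against PMA_ethanol and p = 0.00216 for PMA_1002 against Control, each the smallest that the design allows. Adjusted over these 3 tests, the permutation p-values were 0.00794, 0.00714 and 0.00649. The pooled read ratios were 17.5 (95% interval 6.57 to 65.8), 0.386 (0.263 to 0.560) and 6.75 (2.47 to 25.8) in the same order. In the fit without the filter edgeR's log2 fold changes were 3.91, -1.27 and 2.64, with adjusted p = 4.06e-07, 0.0124 and 0.000419. An antisense transcript, Gm12223, overlaps 12% of the exonic length of Csf2, but held 6 reads over all libraries.

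Csf1, the macrophage factor, was the most abundant ligand message after PMA. Libraries of PMA_1002 held 185 CPM at the lowest, 229 at the median and 251 at the highest, those of PMA_ethanol 307, 215, 286 and 347 CPM, and those of Control 67.1, 72.0, 68.2, 63.8 and 68.9 CPM. All 10 libraries with PMA lay above every Control library, while PMA_1002 and PMA_ethanol overlapped through PMA_ethanol library 2. Csf1 rose in PMA_ethanol over Control with a log2 fold change of 2.08 (SE 0.12, adjusted p = 1.84e-10, edgeR) and in PMA_1002 over Control with one of 1.70 (SE 0.11, adjusted p = 2.84e-09). The difference between PMA_1002 and PMA_ethanol was -0.38 (SE 0.11, adjusted p = 0.0146, edgeR), and it depended on single libraries. It was -0.28 (adjusted p = 0.0684) without PMA_ethanol library 4, and -0.51 (adjusted p = 0.000922) without PMA_ethanol library 2. With no scaling factors it was -0.27 (adjusted p = 0.0657).

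Il34, the second ligand of Csf1r, was the one member higher in PMA_1002 than in PMA_ethanol. It measured 42.3 CPM at the lowest, 52.3 at the median and 54.3 at the highest in PMA_1002, then 33.6, 42.1, 36.8 and 35.8 CPM in PMA_ethanol, and 40.0, 41.8, 43.5, 36.9 and 39.4 CPM in Control. The lowest PMA_1002 library lay just above the highest PMA_ethanol library, and Control overlapped with both. The log2 fold change of PMA_1002 over PMA_ethanol was 0.43 (SE 0.0919, adjusted p = 0.00166, edgeR), and that of PMA_1002 over Control was 0.31 (SE 0.0851, adjusted p = 0.00528). Both are folds under 1.5, and neither passed a test against a fold of 1.5. In PMA_ethanol over Control it was -0.12 (95% interval -0.32 to 0.08, adjusted p = 0.282). The Control comparisons depended on the scaling: with upper-quartile scaling Il34 was lower in PMA_ethanol than in Control, at -0.35 (adjusted p = 0.00405), and its difference between PMA_1002 and Control was 0.15 (adjusted p = 0.145). With that scaling the median of all genes in PMA_ethanol over Control was -0.30, against -0.07 with TMM. Antisense transcripts Gm15894 and Gm15895 overlap 1.12% and 3.83% of the exonic length of Il34.

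Keratinocyte markers shared only part of the pattern of Il34. Of the 7 on the list, 7 were called higher in PMA_1002 than in PMA_ethanol, with a median log2 fold change of 0.67. In PMA_ethanol against Control 5 were lower, with a median of -0.46, while Il34 was not called there with TMM. In that order, 17% of all tested genes were higher and 18% lower, and 32.5% higher and 35.9% lower. The correlation of Il34 with the level of this list was r = 0.51 over the 15 libraries, and -0.59 after removal of the group means. In PMA_1002 against Control 2 were higher and 0 lower with TMM, where 28.4% of all tested genes were higher and 26.7% lower. With upper-quartile scaling 0 were higher and 2 lower in that comparison. Under that scaling 7 were lower in PMA_ethanol than in Control. The part of these cells in the level of Il34 was not tested. Krt10, a keratin of the upper epidermis and the most abundant of these markers, averaged 13116 ± 765 CPM in PMA_1002, 6195 ± 690 CPM in PMA_ethanol and 13287 ± 1897 CPM in Control (SD, n = 6, 4 and 5).

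**Figure D2:**
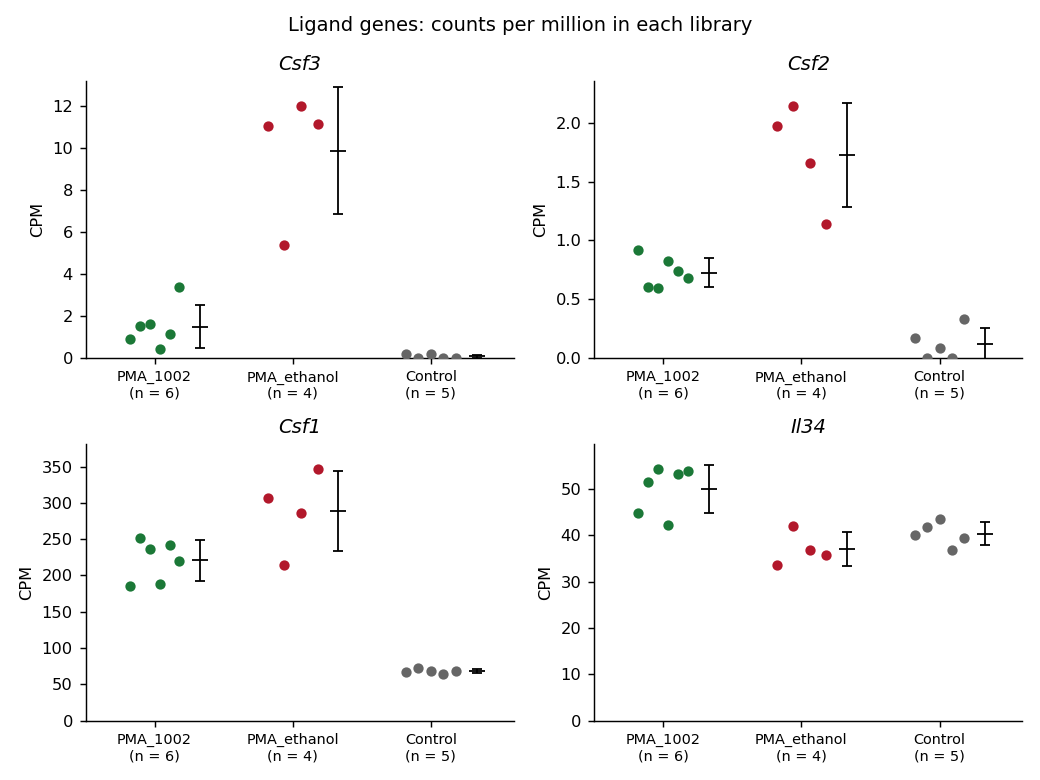
CPM of the 4 ligand genes in each library (y axes start at 0 and differ between genes), with the mean and SD beside the points of each group. Csf3 and Csf2 are highest in PMA_ethanol with no overlap between groups, Csf1 is high in both PMA groups, and Il34 is highest in PMA_1002.

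Csf3r, the receptor for G-CSF and a hallmark of neutrophils, had the largest fold change of the receptor genes in all 3 comparisons. It stood at 59.2 CPM at the lowest, 94.2 at the median and 123 at the highest in PMA_1002, at 454, 265, 506 and 564 CPM in PMA_ethanol, and at 1.21, 1.72, 4.001, 1.23 and 3.93 CPM in Control. The groups were fully apart, and PMA_ethanol library 2 was again the lowest of its group. Its log2 fold change of 7.42 (SE 0.374, adjusted p = 4.97e-10, edgeR) in PMA_ethanol over Control was the 40th highest of 14991 genes. PMA_1002 was lower than PMA_ethanol by a log2 fold change of -2.33 (SE 0.259, adjusted p = 1.15e-05, edgeR), and higher than Control by 5.09 (SE 0.352, adjusted p = 4.27e-08).

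Neutrophil markers moved with Csf3r and Csf3. Of 16 markers 10 were tested, and 9 were higher in PMA_ethanol than in Control, 9 lower in PMA_1002 than in PMA_ethanol and 9 higher in PMA_1002 than in Control, with 0 in the other direction. The shares of all tested genes called were 32.5% higher and 35.9% lower, 17% and 18%, and 28.4% and 26.7% in that order. The median log2 fold changes of the markers were 7.10, -2.41 and 4.38, where those of all tested genes were -0.07, 0.03 and -0.03. Of the 10, 4 would not have passed the filter by their Control libraries alone. The tenth, Mpo, a granule enzyme of neutrophil precursors named here after its values were seen, was not called, at -0.47, -0.00 and -0.47 in the same order. With upper-quartile scaling 1 marker was also called lower in each of the 2 comparisons with Control. The summed level of the list was 262 to 484 CPM in PMA_1002, 1490 to 2561 CPM in PMA_ethanol and 37.7 to 50.7 CPM in Control. S100a9, a subunit of the calprotectin that fills neutrophils, averaged 125 ± 35.0 CPM in PMA_1002, 746 ± 276 CPM in PMA_ethanol and 3.79 ± 1.25 CPM in Control (SD, n = 6, 4 and 5). Ltf, Ngp, Elane and Itgb2l, genes of maturing granulocytes, had no read in Control, and Elane had none in PMA_1002.

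The level of Csf3r was therefore also set against the mean log2 CPM of the measured neutrophil markers within each library. The log2 ratio averaged 1.65 ± 0.31 in PMA_1002, 1.86 ± 0.39 in PMA_ethanol and 0.11 ± 0.77 in Control (SD, n = 6, 4 and 5). PMA_1002 and PMA_ethanol did not differ detectably in it, with a difference of -0.21 (two-sided exact permutation p = 0.376, adjusted p = 0.376 over 12 ratio tests). Both were above Control, by 1.54 in PMA_1002 (exact permutation, adjusted p = 0.0114) and by 1.75 in PMA_ethanol (adjusted p = 0.0190), although 1 Control library at 1.16 exceeded the lowest PMA_1002 library at 1.11. The Control ratios rest on 7 to 50 reads of Csf3r per library. They also depend on how the marker mean is built. It includes Mpo, which was not called, and 4 markers that would not have passed the filter by their Control libraries alone. At such levels the prior count of 2 dampens the change of those markers. The log2 fold changes of Csf3r, 7.42 in PMA_ethanol and 5.09 in PMA_1002 over Control, stand beside marker medians of 7.10 and 4.38. A rise of Csf3r beyond the markers is therefore not read from this ratio.

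Both beta chains were well above Control in the 2 PMA groups. Csf2rb, the common beta chain, had 175 CPM at the lowest, 205 at the median and 234 at the highest in PMA_1002, against 414, 497, 420 and 436 CPM in PMA_ethanol and 27.0, 40.7, 42.6, 30.1 and 35.0 CPM in Control. Its neighbour Csf2rb2 had 121 CPM at the lowest, 145 at the median and 166 at the highest in PMA_1002, then 256, 319, 227 and 282 CPM in PMA_ethanol and 23.4, 29.7, 33.3, 24.6 and 26.3 CPM in Control. For both genes every PMA_1002 library lay between the highest Control and the lowest PMA_ethanol library. In PMA_ethanol over Control the log2 fold change was 3.65 (SE 0.13, adjusted p = 4.14e-13, edgeR) for Csf2rb and 3.30 (SE 0.13, adjusted p = 1.99e-12) for Csf2rb2. In PMA_1002 over PMA_ethanol it was -1.13 (SE 0.11, adjusted p = 1.06e-06, edgeR) for Csf2rb and -0.92 (SE 0.12, adjusted p = 1.31e-05) for Csf2rb2. Compared with Control, PMA_1002 was higher by 2.52 for Csf2rb (adjusted p = 4.49e-11, edgeR) and by 2.38 for Csf2rb2 (adjusted p = 1.43e-10).

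The pair are near copies, so the split of reads between them is uncertain. Over 4687 aligned bases of their longest coding transcripts 90.5% were identical, and 19.0% of the 50-base windows of Csf2rb2, 11.1% of its 75-base windows and 7.20% of its 100-base windows occur exactly in Csf2rb. Within libraries the number of Csf2rb2 reads per Csf2rb read averaged 0.713 ± 0.053 in PMA_1002, 0.612 ± 0.049 in PMA_ethanol and 0.789 ± 0.054 in Control (SD, n = 6, 4 and 5). As log2 ratios, PMA_1002 exceeded PMA_ethanol by 0.22 (two-sided exact permutation, adjusted p = 0.0114), and PMA_ethanol was below Control by -0.37 (adjusted p = 0.0119). The difference of -0.15 between PMA_1002 and Control had an adjusted p of 0.0496 in that permutation test and was not called when single libraries of either group were left out, in 9 of 11 cases. It was -0.19 (adjusted p = 0.0119) without PMA_1002 library 3.

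Csf2ra, the alpha chain that makes the receptor specific for GM-CSF, changed less than the beta chains in both comparisons with Control, with little spread. Between PMA_1002 and PMA_ethanol its change was close to that of Csf2rb. Values in PMA_1002 were 38.4 CPM at the lowest, 42.0 at the median and 45.7 at the highest, in PMA_ethanol 99.0, 96.1, 95.2 and 84.3 CPM, and in Control 22.5, 24.1, 24.8, 19.99 and 25.4 CPM. The 3 groups lay clearly apart. The log2 fold change was 2.002 (SE 0.0856, adjusted p = 3.78e-12, edgeR) in PMA_ethanol over Control. It was -1.15 (SE 0.0789, adjusted p = 4.08e-08, edgeR) in PMA_1002 over PMA_ethanol and 0.85 (SE 0.0790, adjusted p = 1.51e-07) in PMA_1002 over Control.

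Csf1r (ENSMUSG00000024621, chr18:61100598-61132149, plus strand), the receptor shared by Csf1 and Il34, was the member whose level did not pass the test in any comparison. PMA_1002 libraries had 122 CPM at the lowest, 144 at the median and 164 at the highest, PMA_ethanol libraries 147, 191, 134 and 150 CPM, and Control libraries 129, 165, 168, 147 and 148 CPM. All 3 groups overlapped. The log2 difference was 0.05 (95% interval -0.21 to 0.30, adjusted p = 0.753, edgeR) in PMA_ethanol over Control, with the sign turning to -0.19 under upper-quartile scaling and to -0.07 without PMA_ethanol library 2. In PMA_1002 over PMA_ethanol it was -0.12 (95% interval -0.36 to 0.12, adjusted p = 0.440, edgeR) and in PMA_1002 over Control -0.08 (95% interval -0.30 to 0.15, adjusted p = 0.567). The antisense gene Hmgxb3 overlaps 15.1% of the exonic length of Csf1r, and the labels and notes do not state whether counting used the strand. Hmgxb3 averaged 55.4 ± 4.24 CPM in PMA_1002, 65.2 ± 4.61 CPM in PMA_ethanol and 36.2 ± 5.57 CPM in Control (SD, n = 6, 4 and 5), and its part in the Csf1r count was not tested.

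**Figure D3:**
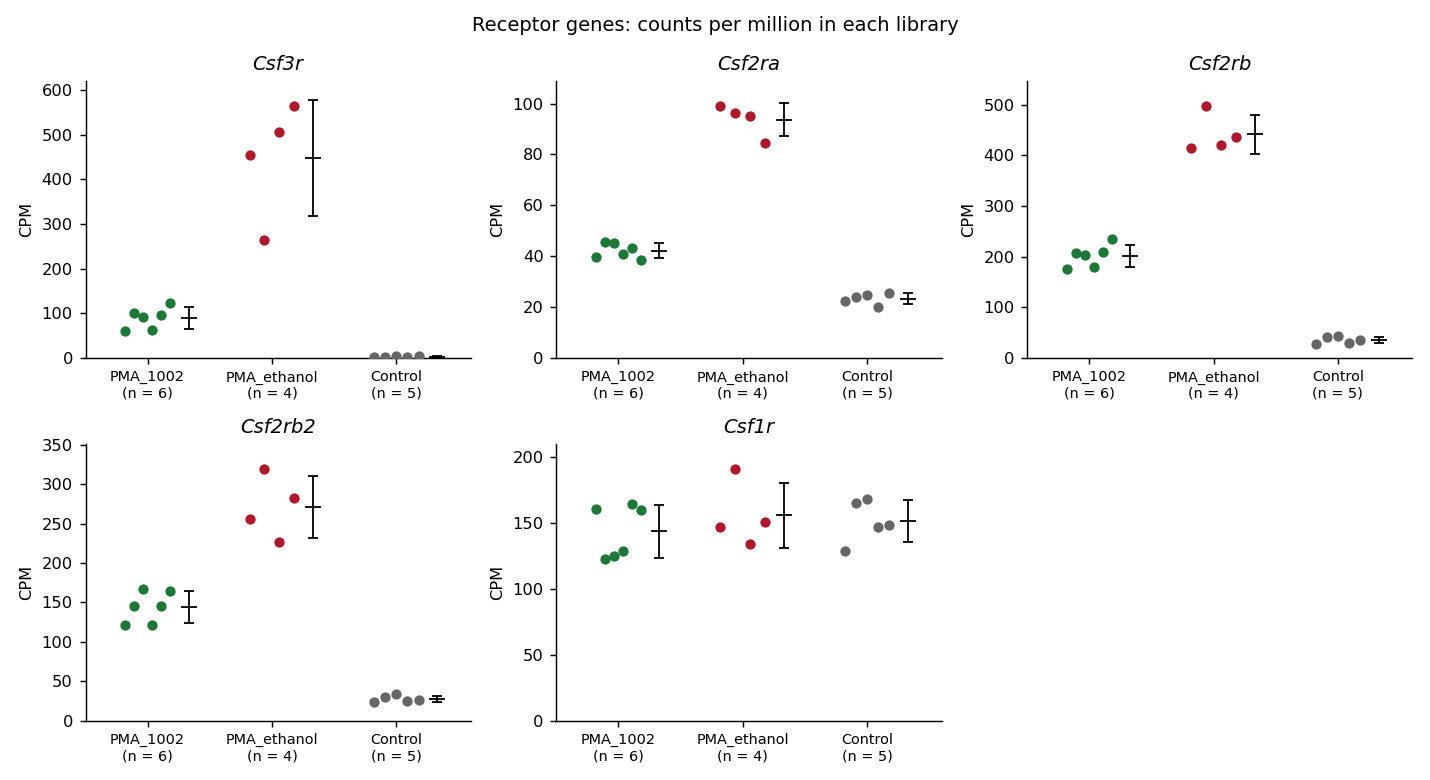
CPM of the 5 receptor genes in each library (y axes start at 0 and differ between genes), with the mean and SD beside the points of each group. Csf3r, Csf2ra, Csf2rb and Csf2rb2 show 3 separate groups with PMA_1002 in the middle, while the points of Csf1r overlap in all groups.

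Markers of monocytes and macrophages, the cells that carry Csf1r, did change. Of 15 tested, 10 were higher and 3 lower in PMA_ethanol than in Control, 2 were higher and 9 lower in PMA_1002 than in PMA_ethanol, and 9 were higher and 2 lower in PMA_1002 than in Control. The shares of all tested genes called were 32.5% higher and 35.9% lower, 17% and 18%, and 28.4% and 26.7% in that order. The median log2 fold changes of the markers were 1.27, -0.75 and 0.90, where those of all tested genes were -0.07, 0.03 and -0.03. The summed level was 1083 to 1432 CPM in PMA_1002, 2086 to 2539 CPM in PMA_ethanol and 621 to 763 CPM in Control, and no marker of the list was without reads in any group. Cd14, the endotoxin co-receptor, averaged 122 ± 25.0 CPM in PMA_1002, 670 ± 155 CPM in PMA_ethanol and 11.7 ± 2.34 CPM in Control (SD, n = 6, 4 and 5). Lyz2, the lysozyme of myeloid cells including neutrophils, averaged 441 ± 61.2 CPM in PMA_1002, 745 ± 128 CPM in PMA_ethanol and 234 ± 32.2 CPM in Control. Mrc1, the mannose receptor, averaged 262 CPM in PMA_1002, 482 CPM in PMA_ethanol and 118 CPM in Control. The 3 members lower in PMA_ethanol than in Control were named after their values were seen. Mertk, a receptor for the uptake of dying cells, was at -0.83 (adjusted p = 2.29e-05, edgeR). The complement genes C1qa and C1qc were at -0.70 (adjusted p = 0.000181) and -0.64 (adjusted p = 0.000229), and C1qb at 0.04 and Adgre1 at 0.17 were not called. Other macrophage markers were higher there, among them Cd163 at 0.59 (adjusted p = 0.0189, edgeR) and Mrc1 at 2.03 (adjusted p = 8.68e-11). The list thus mixes markers that rose and fell, and the ratio to its mean depends on both. Within libraries the log2 ratio of Csf1r to the mean of these markers was 1.97 ± 0.23 in PMA_1002, 1.47 ± 0.16 in PMA_ethanol and 2.86 ± 0.11 in Control (SD, n = 6, 4 and 5). PMA_ethanol was below Control by -1.39 (two-sided exact permutation, adjusted p = 0.0119), PMA_1002 was above PMA_ethanol by 0.50 (adjusted p = 0.0127) and below Control by -0.90 (adjusted p = 0.0114).

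The balance of the 2 ligands of Csf1r also differed between all groups. There were 4.41 ± 0.29 Csf1 reads for each Il34 read in PMA_1002, 7.92 ± 2.05 in PMA_ethanol and 1.69 ± 0.07 in Control (SD, n = 6, 4 and 5). PMA_1002 libraries ran from 4.09 to 4.88, PMA_ethanol libraries from 5.10 to 9.69 and Control libraries from 1.57 to 1.75, with no overlap. On the log2 scale PMA_1002 was below PMA_ethanol by -0.80 (two-sided exact permutation, adjusted p = 0.0114), above Control by 1.38 (adjusted p = 0.0114), and PMA_ethanol was above Control by 2.18 (adjusted p = 0.0119). A ratio within a library does not depend on the scaling between libraries, and it shows unequal change of the 2 messages, not which of them changed.

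**Figure D4:**
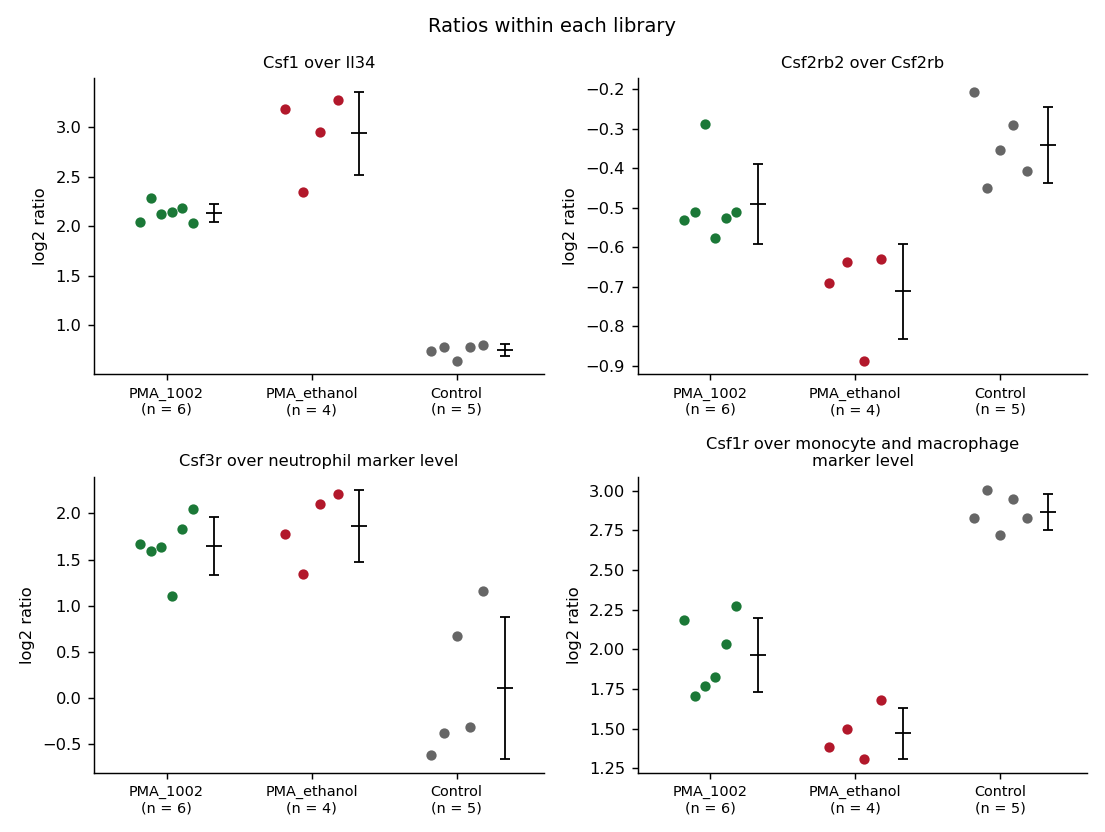
Log2 ratios within each library (y axes differ between panels and do not start at 0), with the mean and SD beside each group: Csf1 over Il34, Csf2rb2 over Csf2rb, Csf3r over neutrophil markers, and Csf1r over monocyte and macrophage markers. The first panel has 3 separate groups, and in the third panel PMA_1002 and PMA_ethanol overlap.

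Levels were divided by exonic length, that of all annotated exons of a gene, and comparisons between genes hold only as far as that length does. On this measure the make-up of the system differed between groups. Among the ligands, as shares of summed CPM per kilobase, Il34 made up 36.9 ± 1.27% in PMA_1002, 23.4 ± 5.45% in PMA_ethanol and 61.1 ± 1.06% in Control (SD, n = 6, 4 and 5). By this measure it was the leading ligand in Control. That order rests on the lengths used, 1959 bases for Il34 and 5281 for Csf1, since Control had 1.69 Csf1 reads per Il34 read. Csf1 led in both PMA groups, with 60.3 ± 1.88% in PMA_1002 and 65.6 ± 4.82% in PMA_ethanol, against 38.3 ± 1.08% in Control. Csf3 held 1.48 ± 0.96% in PMA_1002, 8.32 ± 1.98% in PMA_ethanol and 0.137 ± 0.189% in Control, and Csf2 held 1.35 ± 0.39%, 2.70 ± 0.98% and 0.430 ± 0.515% in that order of groups.

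Among the receptors, Csf1r made up 20.5 ± 3.32% of the summed CPM per kilobase in PMA_1002, 9.04 ± 2.01% in PMA_ethanol and 57.5 ± 1.83% in Control, where it led. Csf3r made up 19.9 ± 3.32% in PMA_1002, 40.7 ± 9.60% in PMA_ethanol, where it led, and 1.43 ± 0.76% in Control. No receptor stood out in PMA_1002, where Csf2rb2 had 24.8 ± 1.58% and Csf2rb 22.7 ± 0.60%. In CPM per kilobase, PMA_1002 averaged 30.4 ± 4.21 for Csf2rb2, 27.7 ± 2.97 for Csf2rb, 24.8 ± 3.45 for Csf1r and 24.6 ± 6.69 for Csf3r (SD, n = 6), and neighbours in that order differed by less than their spread. The order of the beta chains depends on the length used: per kilobase of its longest coding transcript of 4900 bases, in place of the annotated exonic 7277, Csf2rb averaged 41.1 ± 4.41 in PMA_1002, above Csf2rb2. Its shares are lowered in the same way. Csf2ra had the lowest share in PMA_1002, 12.1 ± 1.49%, against 10.9 ± 1.44% in PMA_ethanol and 17.9 ± 1.61% in Control.

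**Figure D5:**
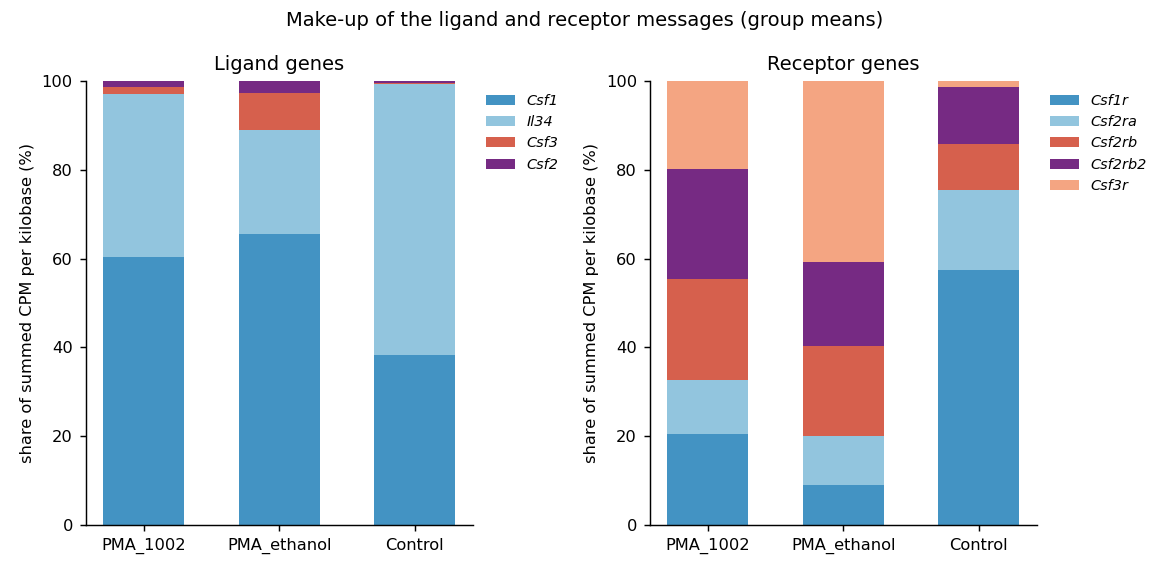
Mean share of each gene (y axis, % of the summed CPM per kilobase) among the 4 ligand genes and among the 5 receptor genes in PMA_1002, PMA_ethanol and Control. Il34 and Csf1r fill the largest parts in Control, at 61.1% and 57.5%, and Csf1 and Csf3r in PMA_ethanol, at 65.6% and 40.7%.

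Genes that carry the signal of these receptors were measured through 22 kinases, adaptors, STAT factors and survival genes, all of them tested. In PMA_ethanol against Control 17 were higher and 3 lower, with a median log2 fold change of 0.76 where that of all tested genes was -0.07. Stat3, the transcription factor activated by the G-CSF receptor, rose by 2.03 (adjusted p = 6.04e-13, edgeR), and Fgr, a Src-family kinase of myeloid cells, rose by 3.90 (adjusted p = 2.61e-13). In PMA_1002 against PMA_ethanol 0 were higher (2 at an unadjusted p under 0.05, 0 with DESeq2) and 16 lower, with a median of -0.40 where that of all genes was 0.03. Syk, a kinase downstream of immune receptors, fell by 1.48 on the log2 scale (adjusted p = 5.65e-07, edgeR), Fgr fell by 1.14 (adjusted p = 6.28e-07) and Pik3cd, the leukocyte catalytic subunit of PI3-kinase, fell by 0.99 (adjusted p = 3.85e-07). In PMA_1002 against Control 16 were higher and 2 lower, with a median of 0.55 where that of all genes was -0.03, among them Stat3 at 1.47 (adjusted p = 3.57e-11, edgeR) and Fgr at 2.76 (adjusted p = 2.76e-11). With upper-quartile scaling the counts were 15 higher and 4 lower, 2 higher and 12 lower, and 14 higher and 3 lower. With TMM, 32.5% of all tested genes were called higher and 35.9% lower, 17% and 18%, and 28.4% and 26.7% in that order.

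Of the 13 genes that restrain or shed the receptors, 12 were tested, and the untested one, Elane, encodes neutrophil elastase, which cleaves G-CSF. In PMA_ethanol against Control 11 were higher and 0 lower, with a median log2 fold change of 1.13. Socs3, the feedback inhibitor of the G-CSF receptor, rose by 5.07 (adjusted p = 2.65e-14, edgeR), to 913 CPM on average in PMA_ethanol against 27.3 in Control. Socs1, a feedback inhibitor of JAK kinases, rose by 3.34 (adjusted p = 6.36e-12), and Ptpn1, a tyrosine phosphatase, rose by 1.53 (adjusted p = 3.87e-11). In PMA_1002 against PMA_ethanol 0 were higher and 11 lower, with a median of -0.52. Socs3 fell by 1.31 (adjusted p = 1.73e-07, edgeR), Socs1 fell by 1.17 (adjusted p = 2.48e-06) and Cblb, a ubiquitin ligase, fell by 0.76 (adjusted p = 4.68e-05). In PMA_1002 against Control 8 were higher and 0 lower, with a median of 0.68, among them Socs3 at 3.75 (adjusted p = 7.43e-13, edgeR), Socs1 at 2.17 (adjusted p = 1.95e-09) and Cish, a target of STAT5, at 1.92 (adjusted p = 2.44e-09). None of these zeros changed at an unadjusted p under 0.05 or with DESeq2. With upper-quartile scaling 9 were higher and 0 lower, 0 higher and 10 lower, and 8 higher and 1 lower. With TMM, 32.5% of all tested genes were called higher and 35.9% lower, 17% and 18%, and 28.4% and 26.7% in that order. The TMM medians of all tested genes were -0.07, 0.03 and -0.03.

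Of 10 related ligands and receptors 7 were tested, with 1 higher and 4 lower in PMA_ethanol than in Control, 3 higher and 2 lower in PMA_1002 than in PMA_ethanol, and 1 higher and 4 lower in PMA_1002 than in Control. Their median log2 fold changes were -0.48, 0.14 and -0.35 in that order, where those of all tested genes were -0.07, 0.03 and -0.03. Of all tested genes 32.5% were called higher and 35.9% lower, 17% and 18%, and 28.4% and 26.7% in that order. With 7 genes, the list is short to set beside these shares. Flt3l, the growth factor of dendritic cells, fell by 2.05 on the log2 scale in PMA_ethanol against Control (adjusted p = 1.25e-08, edgeR) and by 1.49 in PMA_1002 against Control (adjusted p = 1.88e-07). Its receptor Flt3 was at -0.92 in PMA_ethanol against Control (adjusted p = 0.00318, edgeR) and at -0.78 in PMA_1002 against Control (adjusted p = 0.00552). Kit, the receptor for stem cell factor on mast cells, was at -0.98 in PMA_ethanol against Control (adjusted p = 2.35e-05, edgeR) and at 0.63 in PMA_1002 against PMA_ethanol (adjusted p = 0.00329). Of 2 proteins reported to bind interleukin-34, the proteoglycan Sdc1 was at 0.85 (adjusted p = 8.12e-06, edgeR), -0.40 (adjusted p = 0.0122) and 0.45 (adjusted p = 0.00249) in PMA_ethanol against Control, PMA_1002 against PMA_ethanol and PMA_1002 against Control. The other, the receptor phosphatase Ptprz1, was at -0.48 (adjusted p = 0.0269, edgeR), 0.60 (adjusted p = 0.0130) and 0.13 (adjusted p = 0.520) in the same order.

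Of 13 myeloid transcription factors and adaptors 11 were tested, with 7 higher and 3 lower in PMA_ethanol than in Control, 3 higher and 5 lower in PMA_1002 than in PMA_ethanol, and 6 higher and 1 lower in PMA_1002 than in Control. The medians of their log2 fold changes were 1.45, -0.32 and 0.85, where those of all tested genes were -0.07, 0.03 and -0.03. Of all tested genes 32.5% were called higher and 35.9% lower, 17% and 18%, and 28.4% and 26.7% in that order. Cebpd and Cebpb, C/EBP factors of the acute response, rose by 2.75 (adjusted p = 6.39e-11, edgeR) and 1.80 (adjusted p = 2.39e-11) in PMA_ethanol against Control, and Tyrobp, an adaptor of myeloid receptors, rose by 2.17 (adjusted p = 4.51e-12). In PMA_1002 against PMA_ethanol Tyrobp fell by 1.25 (adjusted p = 4.08e-08, edgeR), Runx1, a factor of blood cell development, fell by 0.60 (adjusted p = 0.000261) and Cebpb fell by 0.56 (adjusted p = 7.06e-05). In PMA_1002 against Control Spi1, which encodes PU.1, was higher by 1.18 (adjusted p = 1.99e-08, edgeR), Cebpb by 1.24 (adjusted p = 2.84e-09) and Cebpd by 2.43 (adjusted p = 5.25e-10).

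Genes whose level was most like that of each tested member over the 15 libraries were found by the Pearson correlation of log2 CPM, and r after removal of the group means is given beside it. These are descriptions over libraries that fall into 3 groups, and high values of r over all 15 largely follow from the differences between the groups. Csf2rb was most like Csf2rb2 (r = 0.997, 0.865 within groups), then B4galt5 (0.996, 0.686) and Il4ra (0.995, 0.724), and Csf2rb2 was most like Csf2rb, Il4ra (0.994, 0.568) and Bhlhe40 (0.993, 0.647). Among the genes closest to Csf3r were Il1b (0.994, 0.891) and Trem1 (0.994, 0.783). Csf2ra was closest to Tyrobp (0.994, 0.701), Oaf (0.989, 0.511) and Cd209a (0.988, 0.766). For Csf1 the nearest were Gadd45b (0.991, 0.839), Ch25h (0.9902, 0.708) and Tnfaip6 (0.989, 0.678), and for Csf3 they were Sycp2 (0.983, 0.810), Mirt1 (0.983, 0.767) and Cass4 (0.981, 0.785). Il34 and Csf1r had weaker partners: Lcmt2 (0.887, 0.708), Mlst8 (0.873, 0.757) and Slc27a3 (0.847, 0.422) for Il34, and Gm6472 (0.82898, 0.863), Exosc5 (0.828, 0.825) and Syn3 (0.825, 0.854) for Csf1r. Among the members themselves, Csf1r and Il34 had r = -0.04 over the 15 libraries, and 0.37 within groups. Csf1 with its receptor Csf1r had r = -0.12 over the 15 libraries, and -0.38 within groups.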

How the data were processed

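Libraries were prepared from polyA RNA, extracted with an RNeasy kit, using a stranded kit, per the labels' protocols. The submitters' processing notes name STAR 2.5 and HTSeq with GRCm38, and FastQC 0.11.5 and MultiQC 0.8 for quality. Neither the strand option nor the annotation release is stated there. The files deposited by the authors hold raw read counts per gene. Reads given to no gene, 28.5% to 32.8% of each table, of which those with several positions were 16.0% to 20.1% of the table, stayed out of library sizes, so near-identical genes may be undercounted.

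Symbols came from GENCODE M21 (48435 of 48795 identifiers) and promoters from RefSeq (GRCm38.p6). In R 4.3.3 with edgeR 4.0.16, TMM scaling, filterByExpr and robust quasi-likelihood fits ran over all 15 libraries with 3 groups as the only term. Ratios, with a prior count of 2, were tested by exact permutation, adjusted over 12 tests. The edgeR step was tested on simulated counts with known fold changes. Libraries of a group differed beyond counting noise (chi-square per degree of freedom 2.93 to 27.0 over 31 pairs). Intervals of pooled reads cover counting error only.

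The members, the gene lists, the motifs and the tests were chosen with earlier results of these data known. Named are all members, up to 3 called genes of smallest adjusted p per signalling list and comparison, markers of high CPM, and the 3 genes most correlated with each tested member, except that some genes this rule names are not reported here. Alternatives were other scalings, DESeq2 1.42.0, other filters, 2-group fits, the replicate block, a hair follicle covariate, a test against a fold of 1.5, other prior counts and leaving out each library.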

Additional observations from a re-analysis of the deposited data

Results flagged for a closer look

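Over 39 sets of values, one for each member or ratio in each group, 2 held a library set apart from its group by a gap that chance gives in about 1 of 20 such sets. That number is about what this rate alone gives over 39 sets. Csf3 was at 5.38 CPM in PMA_ethanol library 2, and the nearest of the other PMA_ethanol libraries was at 11.05 CPM, a gap of 0.856 of the group's range. That library is the deepest of its group, with 23999666 reads in genes, and holds 123 reads of Csf3. Without it the log2 fold change of Csf3 was 6.90 in PMA_ethanol over Control and -2.96 in PMA_1002 over PMA_ethanol. The log2 ratio of Csf2rb2 to Csf2rb was -0.29 in PMA_1002 library 3, with the nearest PMA_1002 library at -0.51, a gap of 0.770 of the range. No explanation of either was tested.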

How the results depend on the processing

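Of 575 alternative values of member log2 fold changes, 561 kept direction and side of the threshold. Csf3 is counted in them, with 24, 24 and 23 values in the 3 comparisons, all of them kept. Its values do not bear on stability, since the filter had fixed that Csf3 differed. Upper-quartile scaling and no scaling factors each gave 1 member lower in PMA_ethanol than in Control (Il34, -0.35 in both) in place of 0, and turned Csf1r there to -0.19 and -0.18. Leaving out single libraries put Csf1r there between -0.07 (without PMA_ethanol library 2, -0.0701) and 0.11, with -0.00879 without Control library 1. In PMA_1002 against PMA_ethanol the test against a fold of 1.5 left 0 members higher and ended the call of Csf1. The call of Il34 in PMA_1002 over Control ended under both scalings and that test. The log2 ratio of Csf2rb2 to Csf2rb in PMA_1002 over Control ran from -0.19 to -0.12 with single libraries left out. With the replicate block, 5 members, Csf3 counted, were lower in PMA_1002 than in PMA_ethanol in place of 6, Csf1 being at -0.41 (adjusted p = 0.0581, edgeR), and no other call changed. Replicate numbers are not said to pair libraries, and 2 of 13 same-numbered pairs deviated together at r over 0.1 (range -0.53 to 0.58). In a fit of PMA_1002 and Control alone, Csf3 did not pass the filter. The cause of these changes was not tested. The depth limits Csf2 and Csf3 most, with 4 and 3 reads over the 5 Control libraries.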

Other observations

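Markers of other cell types were counted in the same way, and their part in the levels of the members was not tested. Of all tested genes 32.5% were called higher and 35.9% lower in PMA_ethanol than in Control. The shares were 17% and 18% in PMA_1002 against PMA_ethanol, and 28.4% and 26.7% in PMA_1002 against Control. Of 9 tested markers of Langerhans and dendritic cells, which depend on Il34, Csf2 and Flt3l in different tissues, 5 were higher and 1 lower in PMA_ethanol than in Control, 0 higher and 4 lower in PMA_1002 than in PMA_ethanol, and 5 higher and 1 lower in PMA_1002 than in Control. Their summed level was 1729 to 2101 CPM in PMA_1002, 2106 to 2710 CPM in PMA_ethanol and 1418 to 2003 CPM in Control. Mast cell markers had 0 of 7 higher and 5 lower in PMA_ethanol than in Control, 2 higher and 0 lower in PMA_1002 than in PMA_ethanol, and 0 higher and 4 lower in PMA_1002 than in Control. Under upper-quartile scaling 7 of them were lower in PMA_ethanol than in Control, and 5 in PMA_1002 than in Control. For eosinophils and basophils, cells that use the beta chains through interleukin-5 and interleukin-3, 2 of 6 markers were tested, and the summed level was 2.34 to 5.14 CPM in PMA_1002, 6.62 to 15.2 CPM in PMA_ethanol and 0.461 to 1.68 CPM in Control. Both tested markers, Siglecf and Ccr3, passed the filter only through their reads in PMA_ethanol, so their calls are not counted.

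Of 5 tested T cell markers 1 was higher in PMA_ethanol than in Control, 1 lower in PMA_1002 than in PMA_ethanol and 1 lower in PMA_1002 than in Control, but with upper-quartile scaling 0 were higher and 2 lower in PMA_ethanol than in Control and 0 higher and 3 lower in PMA_1002 than in Control. Fibroblast markers had 1 of 6 higher and 3 lower in PMA_ethanol than in Control, 1 higher and 1 lower in PMA_1002 than in PMA_ethanol, and 1 higher and 2 lower in PMA_1002 than in Control. Under upper-quartile scaling the last 2 splits were 2 higher and 1 lower, and 1 higher and 4 lower. Endothelial markers had 2 of 5 higher and 2 lower, 1 higher and 2 lower, and 1 higher and 2 lower in the same order, and under upper-quartile scaling 1 higher and 3 lower, 2 higher and 2 lower, and 1 higher and 3 lower. Beside the shares of all tested genes called, such counts from so few genes are not read as changes of T cells, fibroblasts or endothelial cells. Of 7 skeletal muscle markers 0 were called by edgeR in any comparison, with 0 at an unadjusted p under 0.05 and 0 with DESeq2. Hair follicle genes varied widely within groups, with summed levels of 18.1 to 1087 CPM in PMA_1002, 23.6 to 3345 CPM in PMA_ethanol and 72.1 to 3264 CPM in Control. Of 11 tested, 1 was lower in PMA_ethanol than in Control, 0 were called between PMA_1002 and PMA_ethanol by edgeR (1 at an unadjusted p under 0.05, 0 with DESeq2), and 1 was lower in PMA_1002 than in Control. With the hair follicle level as a covariate, the counts of members called were the same as those reported.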
